A study of Mus musculus with 9 samples.

Results

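The genes described here were 8 genes of zinc handling in primary mouse hepatocytes, of 56691 genes counted. They were the metallothioneins Mt1 and Mt2, the zinc-sensing transcription factor Mtf1, the exporters Slc30a1 and Slc30a10, and the importers Slc39a4, Slc39a10 and Slc39a14. They were taken by name and were chosen on their values in these same libraries. Their levels and fold changes are therefore a description and were given no p-value. The lists of other genes below were also chosen with earlier results of these data known. The adjusted p-values and counts of those lists do not allow for that choice. All 8 had a row in the deposited table and all 8 passed the filter on low counts.

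RNA was sequenced from cultured primary hepatocytes of mice in 9 libraries, 3 for each treatment. The cells were given Bobcat339 (hydrochloride), 4-octyl itaconate (4OI) or the solvent DMSO. Bobcat339 is reported to inhibit the TET enzymes, which oxidise methylated cytosine in DNA. 4OI is an ester of the macrophage metabolite itaconate that enters cells. All groups had attached for 4 h and had then been kept for 24 h in fresh medium. The sources used here give no dose, duration, strain, sex or age, and do not tell which libraries, if any, also received Remodelin, which the labels name for the series. The titles of the 3 4OI libraries carry the same hepatocyte number and those of the DMSO libraries carry different numbers. No label states whether replicates are separate animals or cultures. The p-values given for other genes therefore cover only the spread between these samples, which may be technical.

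Metallothioneins are small cysteine-rich proteins that bind zinc and copper, and the liver is among the organs that make most of them. When free zinc in the cell rises, the zinc-finger protein MTF1 binds metal response elements (MREs) upstream of Mt1, Mt2 and Slc30a1 and activates them. Mt1 and Mt2 are also known to be induced by other metals, oxidants, glucocorticoids and cytokines. Proteins of the SLC30 family carry zinc out of the cytosol, across the plasma membrane or into vesicles, while those of the SLC39 family carry zinc into the cytosol.

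The windows upstream of the metallothioneins and of the exporters are shown because zinc is known to act on Mt1, Mt2 and Slc30a1 through MREs. Whether the matches shown are those MREs was not tested. Each line gives the 250 bases before the RefSeq start of the gene (build GRCm38.p6), with every match to the MRE core in capitals. The core was searched as TGCACNC or TGCGCNC on both strands, where N is any base.
Mt1 (chr8:94178839-94179088, plus strand): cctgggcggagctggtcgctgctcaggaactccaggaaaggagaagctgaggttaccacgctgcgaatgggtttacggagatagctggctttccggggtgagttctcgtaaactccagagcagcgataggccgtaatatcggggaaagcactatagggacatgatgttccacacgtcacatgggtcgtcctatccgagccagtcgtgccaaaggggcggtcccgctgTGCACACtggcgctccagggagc
Mt2 (chr8:94172368-94172617, plus strand): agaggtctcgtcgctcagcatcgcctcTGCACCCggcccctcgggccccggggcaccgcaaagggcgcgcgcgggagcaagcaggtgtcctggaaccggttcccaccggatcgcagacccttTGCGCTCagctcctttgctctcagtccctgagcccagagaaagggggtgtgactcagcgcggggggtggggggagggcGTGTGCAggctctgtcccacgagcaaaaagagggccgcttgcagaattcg
Slc30a1 (chr1:191906531-191906780, plus strand): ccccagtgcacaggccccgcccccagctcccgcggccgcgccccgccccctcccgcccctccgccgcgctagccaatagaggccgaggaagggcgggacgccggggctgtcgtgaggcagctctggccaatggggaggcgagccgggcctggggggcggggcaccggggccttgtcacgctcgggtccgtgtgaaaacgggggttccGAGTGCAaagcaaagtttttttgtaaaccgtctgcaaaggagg
Slc30a10 (chr1:185454598-185454847, plus strand): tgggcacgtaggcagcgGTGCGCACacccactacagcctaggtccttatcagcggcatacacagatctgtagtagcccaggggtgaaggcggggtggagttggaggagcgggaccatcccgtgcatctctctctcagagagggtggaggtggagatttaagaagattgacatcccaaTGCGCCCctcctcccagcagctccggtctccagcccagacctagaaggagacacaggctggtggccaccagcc

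The Mt2 window held 3 cores, 2 on the gene's strand and 1 on the other. The Mt1 window held 1 core, which ended 17 bases before the start, and the Slc30a1 window held 1 core on the other strand, 37 to 43 bases before the start. The Slc30a10 window held 3 cores, of which 2 overlapped on opposite strands. The Mtf1 window and the 2 windows of Slc39a10 held none. Windows for Slc39a4 and Slc39a14 were not analysed here. Of 32851 RefSeq windows of the same length, 21.4% held at least 1 core, 5.17% at least 2 and 1.26% at least 3. The NRF2 element TGACNNNGC, through which oxidants are known to act, matched once in the Mt2 window and once in the Slc30a1 window, as it did at least once in 10.2% of windows. A match is a description of the letters and not a bound site.

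GENCODE M21 (GRCm38) also annotates later starts for both metallothioneins, at 122 and 152 bases after the RefSeq start of Mt1 and at 46 and 242 bases after that of Mt2. Between the first and the last annotated start, 159 bases apart for Mt1 and 196 bases apart for Mt2, there were 4 further cores for Mt1 and 3 for Mt2. These cores are shown with 7 bases on each side, because a window placed on the RefSeq start misses them. Such spans were searched only for Mt1 and Mt2, and no share over all genes was computed for them. The counts are therefore not set against those of other genes.
Mt1 (chr8:94179084-94179104, plus strand): ggagctcTGCACTCcgcccga
Mt1 (chr8:94179102-94179122, plus strand): cgaaaagTGCGCTCggctctg
Mt1 (chr8:94179166-94179186, plus strand): gcctgctGGGTGCAaaccctt
Mt1 (chr8:94179180-94179200, plus strand): aacccttTGCGCCCggactcg
Mt2 (chr8:94172669-94172689, plus strand): aaagggcGTGTGCAggcggcg
Mt2 (chr8:94172688-94172708, plus strand): cgggggcGCGTGCAtggtgcc
Mt2 (chr8:94172722-94172742, plus strand): gagctttTGCGCTCgacccaa

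The labelled cell type was checked first, because the zinc genes differ between liver cell types. The hepatocyte markers (Alb, Hnf4a and 8 others) summed to 27874 to 30618 CPM in Bobcat339 libraries, 1863 to 2050 CPM in 4OI libraries and 31715 to 32049 CPM in DMSO libraries, where CPM are counts scaled to a common library size by TMM (see the plot of marker sums). The macrophage markers summed to 298 to 336, 4949 to 5103 and 625 to 687 CPM in Bobcat339, 4OI and DMSO libraries, and the endothelial markers to 122 to 142, 3777 to 3973 and 137 to 157 CPM. No marker of these 3 lists was at 0 in any library. Against DMSO, 10 of 10 hepatocyte markers fell with 4OI, while 10 of 10 macrophage and 9 of 9 endothelial markers rose (edgeR, adjusted p under 0.05). With Bobcat339, 2 of 10 hepatocyte, 9 of 10 macrophage and 4 of 9 endothelial markers fell against DMSO and none rose. The 4OI libraries therefore went against their label in part. In bulk RNA, fewer cells of a type cannot be told apart from less RNA per cell. The part of these marker shifts in the levels of the 8 genes was not tested. A fit without the 4OI libraries left the Bobcat339 fold changes over DMSO at log2 3.15 (Mt1), 3.50 (Mt2) and 2.37 (Slc30a1). Each group has its own mean in the fit, so leaving out 4OI could change these values only little. That fit says nothing of the marker shifts between Bobcat339 and DMSO. Library totals were 81046789 to 81685369 deposited counts with Bobcat339, 70876333 to 83902788 with 4OI and 67434312 to 68247951 with DMSO. About 4 deposited counts were taken as 1 read pair, from an excess of multiples of 4 among low values. That excess does not establish the scale.

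**Figure D1:**
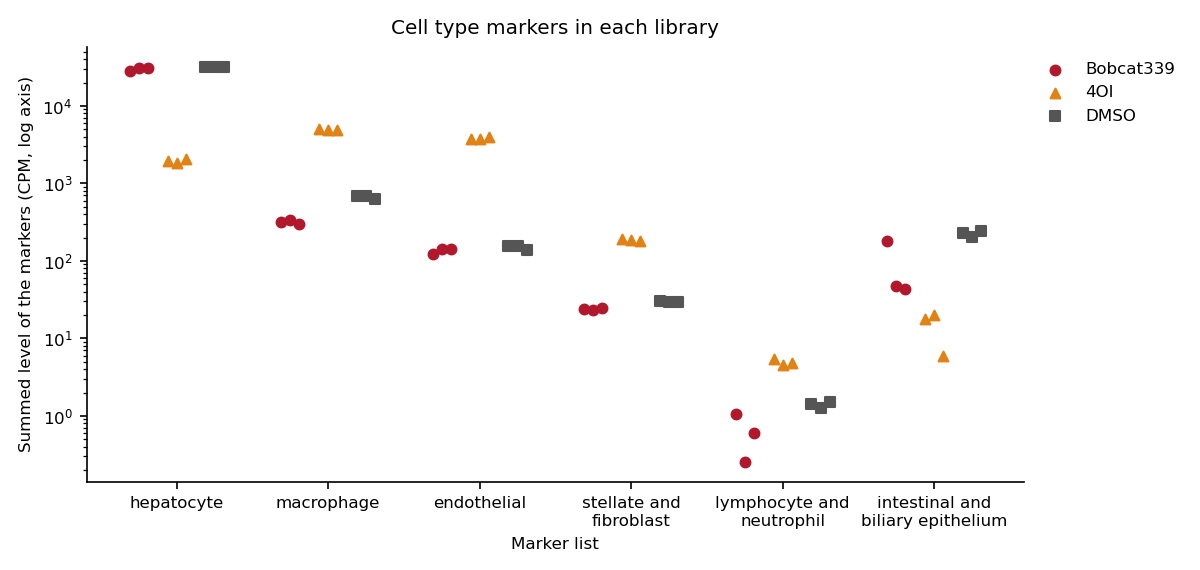
Summed level in CPM (log axis) of the markers of 6 cell types, 1 point for each library, with Bobcat339 left, 4OI in the middle and DMSO right within each list. Hepatocyte markers in 4OI libraries lay at 1863 to 2050 CPM, below all other libraries, and macrophage markers at 4949 to 5103 CPM, above them.

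Mt1 and Mt2 were high in the Bobcat339 libraries and nearly level between 4OI and DMSO. Mt1 was at 1252, 1147 and 1075 CPM in the Bobcat339 libraries, at 154, 146 and 148 CPM in the 4OI libraries and at 133, 145 and 113 CPM in the DMSO libraries. The lowest Bobcat339 library was 7.39 times the highest DMSO library. The log2 fold change of Mt1 was 3.15 (SE 0.10) for Bobcat339 over DMSO, 2.96 (SE 0.10) for Bobcat339 over 4OI and 0.19 (SE 0.10) for 4OI over DMSO. The lowest 4OI library and the highest DMSO library of Mt1 were almost equal.

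Mt2, which encodes the second metallothionein of liver, had the same form. It was at 871, 792 and 729 CPM in the Bobcat339 libraries, at 85.1, 85.1 and 68.4 CPM in the 4OI libraries and at 72.1, 72.3 and 67.2 CPM in the DMSO libraries. The 4OI and DMSO libraries overlapped, and no Bobcat339 library came near either. Its log2 fold change was 3.50 (SE 0.11) for Bobcat339 over DMSO, or 11.3-fold, and 0.17 (SE 0.10) for 4OI over DMSO. Against 4OI, Bobcat339 gave log2 3.33 (SE 0.11), or 10.0-fold.

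Mt1 and Mt2 together took 0.175% to 0.203% of all counts in Bobcat339 libraries, 0.0226% to 0.0251% in 4OI libraries and 0.0179% to 0.0214% in DMSO libraries. The ratio of Mt1 to Mt2 counts was 1.44 to 1.48 with Bobcat339, 1.72 to 2.16 with 4OI and 1.69 to 2.01 with DMSO. The ratio was thus lower in every Bobcat339 library than in any other. Reads of the pair can be told apart, as none of the 1292 words of 50 bases in Mt1 transcripts and none of the 554 in Mt2 transcripts occurred in a transcript of any other gene. Gm45774, annotated on the strand opposite Mt2, was at 5.68 to 7.17 CPM with Bobcat339, 2.29 to 3.56 CPM with 4OI and 1.22 to 2.32 CPM with DMSO. Whether strand was used in counting is not stated, so reads of Mt2 and of Gm45774 cannot be told apart.

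The remaining metallothioneins gave almost no reads. Mt4, known from stratified epithelium, had no count in any library, and Mt3, known from brain, stayed at or below the floor of 3 read pairs in each library and was not tested.

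**Figure D2:**
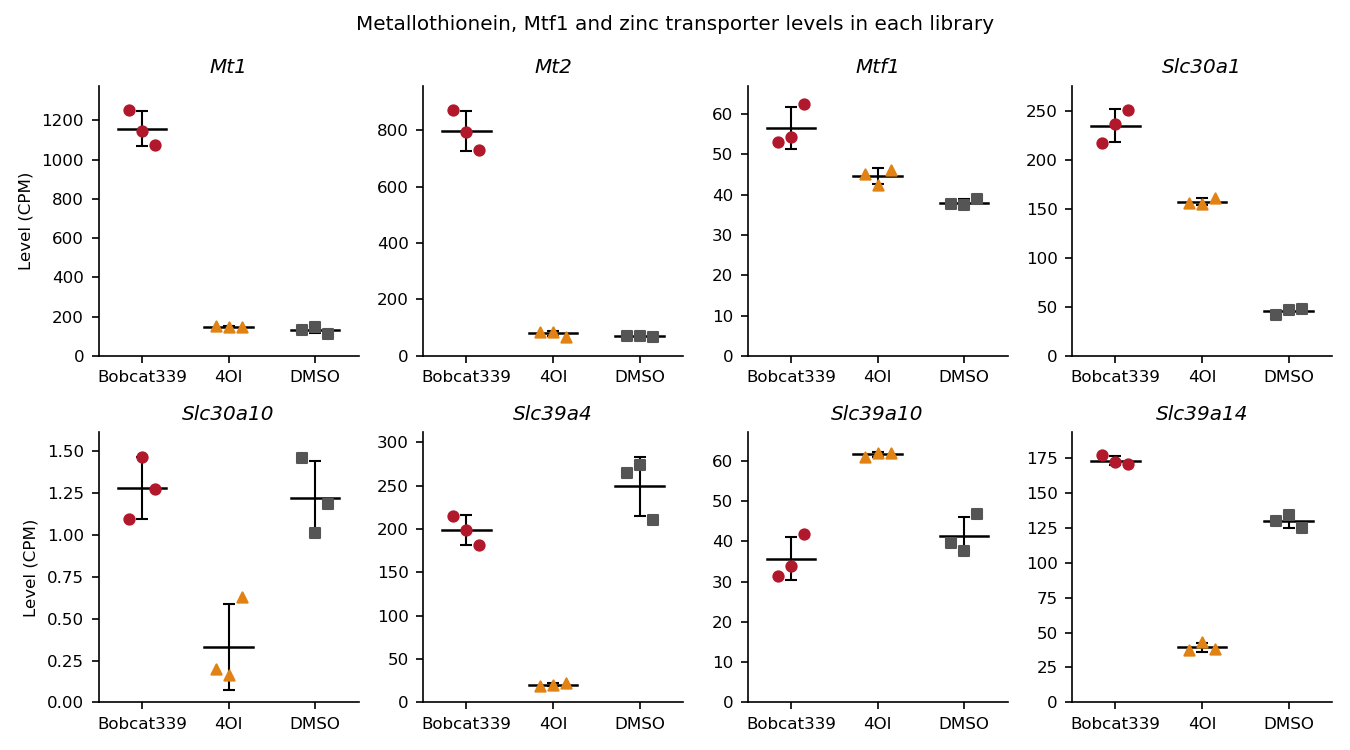
Level in CPM of each of the 8 genes in each library, with Bobcat339 left, 4OI in the middle and DMSO right, and the mean and SD of 3 libraries as a bar and whiskers. Mt1 and Mt2 stood apart in Bobcat339 libraries, Slc30a1 was above DMSO with both treatments, and Slc39a4 and Slc39a14 were lowest in 4OI libraries.

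Mtf1, which encodes the factor that binds MREs, differed far less than the metallothioneins. It was at 52.9, 54.3 and 62.5 CPM in Bobcat339 libraries, at 45.2, 42.3 and 46.2 CPM in 4OI libraries and at 37.6, 37.3 and 39.0 CPM in DMSO libraries. No 2 groups overlapped. Bobcat339 over DMSO gave a log2 fold change of 0.57 (SE 0.09), 4OI over DMSO one of 0.23 (SE 0.09) and Bobcat339 over 4OI one of 0.34 (SE 0.09). The 4OI value ran from 0.13 to 0.32 over 17 alternatives. The gene 1110065P20Rik on the other strand overlaps Mtf1 and was at 8.85 to 13.2 CPM with Bobcat339, 5.98 to 7.64 CPM with 4OI and 10.0 to 12.8 CPM with DMSO.

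Slc30a1 (ZnT1), the main zinc exporter of the plasma membrane, was above DMSO with both treatments. It was at 218, 237 and 251 CPM in Bobcat339 libraries, at 156, 155 and 161 CPM in 4OI libraries and at 41.9, 46.8 and 47.5 CPM in DMSO libraries. The 3 groups did not overlap. The log2 fold change was 2.37 (SE 0.08) for Bobcat339 over DMSO, or 5.18-fold, and 1.79 (SE 0.08) for 4OI over DMSO, or 3.47-fold. Between Bobcat339 and 4OI it was 0.58 (SE 0.08), or 1.49-fold. The 4OI libraries thus held Slc30a1 well above DMSO with Mt1 and Mt2 close to DMSO. The part of the shifted cell type markers in these 4OI levels was not tested. Among the Bobcat339 libraries, replicate 1 had the highest Mt1 and Mt2 and the lowest Slc30a1, and replicate 3 the reverse. Genes outside zinc handling also shifted from replicate 1 to replicate 3, in either direction. Apoa1 went from 1766 to 1312 CPM and Apob from 1671 to 2657 CPM. The order of these libraries is therefore not particular to the zinc genes. The antisense gene 1700034H15Rik was at 0.126 to 0.509 CPM with Bobcat339, 0.0537 to 0.541 CPM with 4OI and 0.0746 to 0.270 CPM with DMSO.

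Slc30a10 (ZnT10), known in mice and humans as a manganese exporter of hepatocytes, was near the limit of detection. It was at 1.10, 1.46 and 1.28 CPM in Bobcat339 libraries, at 0.20, 0.16 and 0.63 CPM in 4OI libraries and at 1.46, 1.01 and 1.18 CPM in DMSO libraries. The Bobcat339 and DMSO libraries overlapped, and the 4OI libraries lay below both. The 4OI values rested on 16, 12 and 55 deposited counts, of which 12 equals the floor of 3 read pairs. The log2 fold change for 4OI over DMSO was -1.87 (SE 0.51), with -2.74 to -1.55 as each library was left out in turn, and that for Bobcat339 over DMSO was 0.07 (SE 0.48).

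Slc39a4 (ZIP4), best known as the zinc importer of the intestine, was low in the 4OI libraries. It was at 215, 199 and 181 CPM in Bobcat339 libraries, at 19.2, 20.5 and 22.2 CPM in 4OI libraries and at 264, 273 and 210 CPM in DMSO libraries. Bobcat339 and DMSO overlapped, and the log2 fold change between them was -0.33 (SE 0.11). For 4OI over DMSO it was -3.60 (SE 0.12), and for Bobcat339 over 4OI 3.27 (SE 0.12), or 9.64-fold. Markers of intestinal and biliary epithelium were also present, at 182, 47.9 and 42.9 CPM in sum in Bobcat339 replicates 1, 2 and 3, 5.93 to 20.0 CPM in 4OI libraries and 205 to 241 CPM in DMSO libraries. In 4OI replicate 3, 6 of these 12 markers were at 0. Their sum differed 4.25-fold between Bobcat339 replicates 1 and 3. Against DMSO, 12 of 12 fell with 4OI, at a median log2 fold change of -4.42 (edgeR, adjusted p under 0.05). With Bobcat339, 1 of 12 fell, and none rose with either treatment. The part of hepatocyte and epithelial markers in the 4OI level of Slc39a4 was not tested.

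Slc39a14 (ZIP14), which takes up zinc, iron and manganese and is induced by interleukin 6 in mouse liver, was above DMSO with Bobcat339 and below it with 4OI. It was at 177, 172 and 170 CPM in Bobcat339 libraries, at 37.3, 43.0 and 38.2 CPM in 4OI libraries and at 130, 134 and 125 CPM in DMSO libraries. The 3 groups did not overlap. On the log2 scale the fold change was 0.42 (SE 0.08) for Bobcat339 over DMSO, or 1.34-fold, and -1.71 (SE 0.08) for 4OI over DMSO. Between Bobcat339 and 4OI it was 2.13 (SE 0.08), or 4.38-fold.

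Slc39a10 (ZIP10), an importer that MTF1 is known to repress in mouse cells, was highest with 4OI. It was at 31.4, 33.9 and 41.8 CPM in Bobcat339 libraries, at 60.8, 62.0 and 61.8 CPM in 4OI libraries and at 39.6, 37.6 and 46.7 CPM in DMSO libraries. Bobcat339 and DMSO overlapped, and 4OI lay above both. In log2 terms the fold change was 0.58 (SE 0.12) for 4OI over DMSO, -0.21 (SE 0.12) for Bobcat339 over DMSO and -0.79 (SE 0.12) for Bobcat339 over 4OI. The gene Gm28151 on the same strand overlaps it and was at 0 to 0.242 CPM with Bobcat339, 0.390 to 0.846 CPM with 4OI and 0.0447 to 0.120 CPM with DMSO. Slc39a10 was the 1 gene of the 8 with a lower level in every Bobcat339 library than in any 4OI library.

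**Figure D3:**
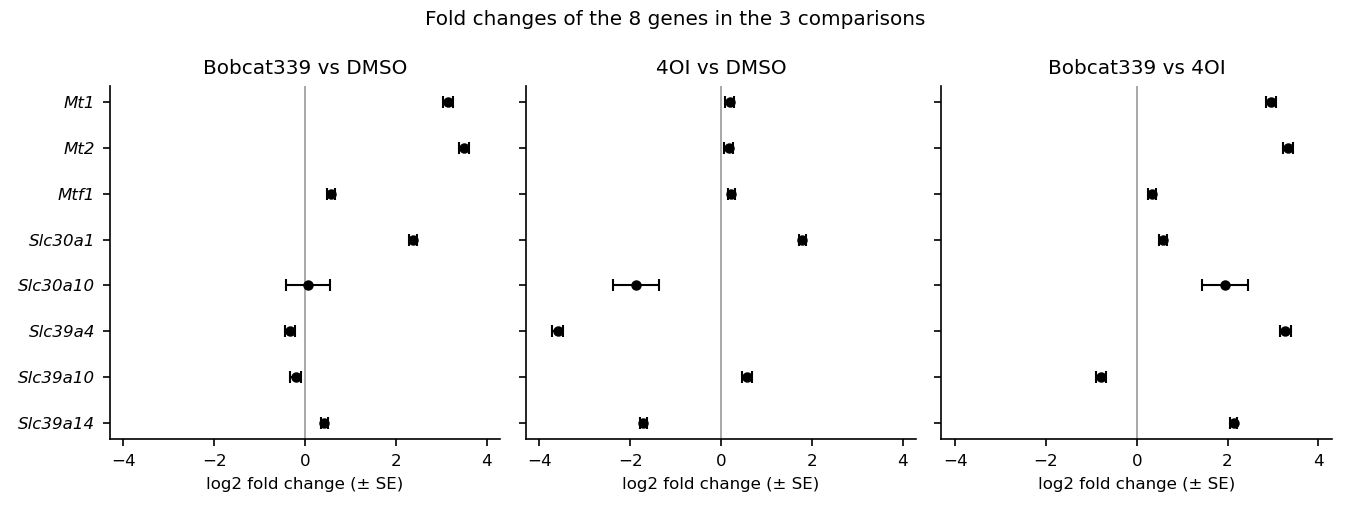
Log2 fold change of the 8 genes, with the standard error of the edgeR fit as whiskers, for Bobcat339 over DMSO, 4OI over DMSO and Bobcat339 over 4OI. Mt1 and Mt2 lay at 3.15 and 3.50 for Bobcat339 over DMSO and near 0 for 4OI over DMSO, and Slc39a4 lay at -3.60 for 4OI over DMSO.

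Counted together, 5 of the 8 genes (Mt1, Mt2, Mtf1, Slc30a1 and Slc39a14) were higher in every Bobcat339 library than in any DMSO library and none was lower, where the libraries of these groups did not overlap for 36.9% of all 18379 genes tested. Between 4OI and DMSO, 4 genes were higher without overlap (Mt1, Mtf1, Slc30a1 and Slc39a10), 3 were lower (Slc30a10, Slc39a4 and Slc39a14) and Mt2 overlapped, against 71.5% of all genes without overlap. Between Bobcat339 and 4OI, 7 genes were higher and Slc39a10 was lower, all without overlap, where 68.9% of all genes did not overlap. The median log2 fold change of the 8 genes was 0.50, 0.18 and 2.04 in these comparisons, against -0.01, 0.08 and 0.00 over all genes tested. The comparisons share libraries, and the genes were chosen from these values, so nothing was read from the counts.

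Levels of different genes were compared only per kilobase of exon in GENCODE M21. Mt2 was at 1356 ± 121 CPM per kb with Bobcat339, 135 ± 16.4 with 4OI and 120 ± 4.92 with DMSO (mean ± SD, n = 3), and Mt1 at 929 ± 71.6, 120 ± 3.21 and 105 ± 12.9 CPM per kb. The order of Mt1 and Mt2 is not settled by these values, since 1 annotated Mt1 transcript is unspliced, and per kb of the spliced transcripts of 549 bases (Mt1) and 511 bases (Mt2) the Bobcat339 levels were 2109 ± 163 and 1560 ± 140 CPM per kb. The libraries of Mt1 and Mt2 overlapped on the exon scale with 4OI and with DMSO. Both stood above the other 6 genes in every group. With Bobcat339 the order went on with Slc39a4 (63.9 ± 5.46 CPM per kb), Slc30a1 (44.9 ± 3.20), Slc39a14 (16.4 ± 0.327), then Mtf1 and Slc39a10, which overlapped, and Slc30a10 (0.219 ± 0.0316). With 4OI it went on with Slc30a1 (30.0 ± 0.652 CPM per kb), Slc39a10 (10.1 ± 0.108), Slc39a4 (6.63 ± 0.482), Mtf1, Slc39a14 (3.75 ± 0.290) and Slc30a10. With DMSO it went on with Slc39a4 (80.2 ± 10.9 CPM per kb), Slc39a14 (12.3 ± 0.459), Slc30a1 (8.66 ± 0.582), Slc39a10, Mtf1 and Slc30a10. Among the transporters of the 8 genes, Slc30a1 was thus the second with Bobcat339, the first with 4OI and the third with DMSO. Levels per kb of the other zinc transporters were not computed.

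The other zinc transporters of both families were tested in the same fit, and 17 of 19 passed the filter. With Bobcat339, 3 of the 17 rose and 2 fell against DMSO, where 11.6% of all genes rose and 9.06% fell, and their median log2 fold change was 0.01. Of all genes called in this comparison 56.2% were higher, a share of 46.1% with RLE scaling and 45.1% with DESeq2. Slc39a6, an importer of the plasma membrane, rose by log2 0.64 (adjusted p = 4.9e-04), to 181 ± 11.1 CPM against 116 ± 8.93 CPM in DMSO. Slc30a4, which loads vesicles with zinc, rose by 0.98 (adjusted p = 0.00248) and Slc30a5 of the early secretory pathway by 0.40 (adjusted p = 0.00718). Slc30a6, the partner of Slc30a5, was called lower at -0.40 (adjusted p = 0.0268) and Slc39a13 at -0.37 (adjusted p = 0.0368), and these calls were lost in 5 and 9 of 17 alternatives.

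With 4OI, 4 of the 17 rose and 10 fell against DMSO, where 33.3% of all genes rose and 30.4% fell, and the median log2 fold change was -0.36. Slc39a3, an importer of the plasma membrane, rose by 1.62 (adjusted p = 3.2e-08), to 40.7 ± 0.160 CPM against 13.3 ± 0.514 CPM in DMSO. Slc30a5 rose by 0.80 (adjusted p = 1.0e-05). Slc39a11 fell by 1.24 (adjusted p = 4.6e-06), Slc30a7, which supplies zinc to the Golgi, by 0.68 (adjusted p = 6.0e-05) and Slc39a1, an importer found in most tissues, by 0.81 (adjusted p = 6.0e-05). Slc39a12, known from brain, had no count in DMSO libraries and 1.41 to 2.00 CPM in 4OI libraries. Its 4OI mean was 9.62 times the highest floor of 3 read pairs among the DMSO libraries. Slc39a5 had no count in 4OI libraries and 0.36 to 0.61 CPM in DMSO libraries. Its DMSO mean was 3.21 times the highest such floor among the 4OI libraries. The part of the shifted hepatocyte, macrophage and endothelial markers in these falls and rises was not tested.

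**Figure D4:**
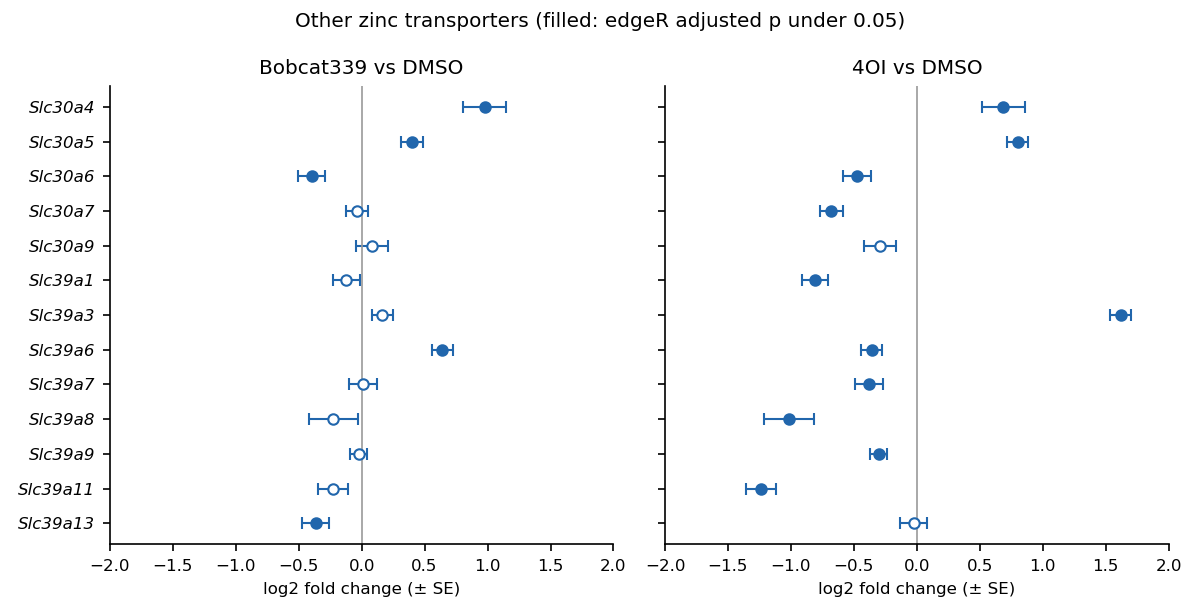
Log2 fold change with standard error of the 13 other zinc transporters with reads above the floor in every library, for Bobcat339 over DMSO on the left and 4OI over DMSO on the right, with filled points at an edgeR adjusted p under 0.05. Slc39a3 lay at 1.62 with 4OI and at 0.16 with Bobcat339, and Slc39a6 at -0.36 and 0.64.

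Between Bobcat339 and 4OI, 10 of the 17 were higher and 4 lower, where 31.3% of all genes were higher and 30.9% lower. Slc39a6 was higher by log2 1.00 (adjusted p = 1.7e-06), Slc39a11 by 1.01 (adjusted p = 2.4e-05) and Slc30a7 by 0.64 (adjusted p = 9.4e-05), and Slc39a3 was lower, at -1.46 (adjusted p = 6.9e-08). Slc30a3, the transporter of synaptic vesicles, held 1.11 to 2.17 CPM in Bobcat339 libraries. It held 0 to 0.0456 CPM in 4OI libraries, below the floor, and was given no fold. The calls of Slc30a9 (higher) and Slc39a13 (lower) were lost in 4 and 3 of 17 alternatives, and those of Slc39a7 and Slc39a9 (both higher) with library size only.

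Of 7 other genes known as MTF1 targets, 3 rose and none fell with Bobcat339, where 11.6% of all genes rose and 9.06% fell, at a median log2 fold change of -0.21. Those that rose were Ndrg1, a stress-induced gene (log2 0.69, adjusted p = 3.7e-04), Csrp1, which encodes a LIM-domain protein (0.53, adjusted p = 0.0159), and the selenoprotein gene Selenow (0.40, adjusted p = 0.0450). Selenow lost its call in 10 of 17 alternatives and Csrp1 in 2. Gclc, Slc40a1 and Pgf, at log2 -0.21, -0.27 and -0.39, were called lower in 5, 2 and 5 of 17 alternatives. RLE scaling and DESeq2 were among these for each of them, and Selenow lost its call under both. Selenoh, at -0.28, stayed uncalled. With 4OI, 3 of 7 rose and 3 fell, where 33.3% of all genes rose and 30.4% fell, among them the iron exporter gene Slc40a1 (2.88, adjusted p = 3.5e-09) and the growth factor gene Pgf (3.47, adjusted p = 2.8e-09) upward and Gclc of glutathione synthesis (-1.48, adjusted p = 2.4e-08) downward. Between Bobcat339 and 4OI, 3 of 7 were higher and 3 lower, against 31.3% and 30.9% of all genes. Ndrg1 was higher by 2.12 (adjusted p = 5.8e-09), and Slc40a1 and Pgf were lower, at -3.15 (adjusted p = 1.8e-09) and -3.87 (adjusted p = 1.3e-09). The median log2 fold change for 4OI over DMSO was -3.26 for hepatocyte, 3.35 for macrophage and 4.41 for endothelial markers, and that for Bobcat339 over DMSO was -2.30 for macrophage markers. Their part in the values of this list and of the 3 lists that follow was not tested.

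Of 10 genes that heavy metals and oxidants are known to induce, 5 rose and none fell with Bobcat339 (median log2 fold change 0.38), against 11.6% and 9.06% of all genes, led by the inducible HSP70 genes Hspa1a (3.96, adjusted p = 2.2e-07) and Hspa1b (3.11, adjusted p = 1.8e-07). Reads of this near-identical pair may be split between them. The heme oxygenase gene Hmox1 rose by 0.97 (adjusted p = 1.1e-05) with Bobcat339 and by 4.84 (adjusted p = 5.5e-11) with 4OI, and was lower with Bobcat339 than with 4OI, at -3.87 (adjusted p = 7.7e-11). With 4OI, 7 of 10 rose and Hspa8 fell (median 1.12), against 33.3% and 30.4% of all genes, and the call of Hspa8 (-0.17, adjusted p = 0.0250) was lost in 6 of 17 alternatives. Hspa1b rose by 3.32 (adjusted p = 8.3e-10) and Gclm by 1.75 (adjusted p = 1.4e-09). Set against 4OI, Bobcat339 had 2 of the 10 higher (Slc7a11 and Hspa8, the second losing its call in 3 of 17 alternatives) and 4 lower, against 31.3% and 30.9% of all genes. The lower ones included Gclm (-1.87, adjusted p = 8.0e-10) and Hsph1 (-1.19, adjusted p = 2.3e-06). For Hspa1b the difference was -0.20 (adjusted p = 0.0900), and the data do not settle whether it differed.

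Among 13 genes of copper and manganese handling, 2 rose and 1 fell with Bobcat339, a share close to the 20.7% of all genes called in either direction. The metal importer Slc11a2 rose by 0.84 (adjusted p = 1.2e-04), while the copper exporters Atp7a (0.63, adjusted p = 0.0495) and Atp7b (-0.89, adjusted p = 0.0193) lost their calls in 11 and 4 of 17 alternatives. With 4OI, 4 rose and 7 fell, where 63.7% of all genes were called. The rise of Atp2c1 and the fall of Slc31a1 lost their calls in 6 and 1 of 17 alternatives. Cp, which encodes the plasma copper protein ceruloplasmin of hepatocytes, fell by 4.37 (adjusted p = 3.1e-09) and Atp7b fell by 6.36 (adjusted p = 1.7e-08). The copper transporter gene Slc31a2 rose by 2.02 (adjusted p = 1.8e-08). Compared with 4OI, Bobcat339 had 8 higher and 3 lower, where 62.2% of all genes were called and the call of Slc31a1 (higher) was lost in 3 of 17 alternatives. It had Cp higher by 4.60 (adjusted p = 2.1e-09) and Atp7b by 5.46 (adjusted p = 4.6e-08), and Slc31a2 was lower, at -1.73 (adjusted p = 5.4e-08).

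Glucocorticoid-induced genes were counted because glucocorticoids induce metallothioneins in mouse liver. With Bobcat339, 4 of 6 rose and Fkbp5 fell (-0.51, adjusted p = 0.00107), where 11.6% of all genes rose and 9.06% fell. Dusp1 rose by 0.98 (adjusted p = 2.9e-05), Per1 by 1.15 (adjusted p = 4.2e-05) and Sgk1 by 0.65 (adjusted p = 6.3e-04), while the call of Tsc22d3 (0.42, adjusted p = 0.0290) was lost in 6 of 17 alternatives. With 4OI, 4 rose and Zbtb16 fell, against 33.3% and 30.4% of all genes, and the call of Fkbp5 (0.20, adjusted p = 0.0381) was lost in 11 of 17 alternatives. Those with the smallest adjusted p were Sgk1 at 2.68 (adjusted p = 1.5e-09), Zbtb16 at -4.45 (adjusted p = 2.3e-07) and Dusp1 at 1.06 (adjusted p = 8.7e-07). Over 4OI, Bobcat339 had 2 of 6 higher and 3 lower, against 31.3% and 30.9% of all genes, with Zbtb16 higher by 4.20 (adjusted p = 3.4e-07) and Per1 by 0.98 (adjusted p = 1.0e-05), and Sgk1 lower, at -2.03 (adjusted p = 8.7e-09).

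The genes nearest to the metallothioneins in profile were sought among 12137 candidates with a symbol and a mean of at least 1 CPM. The measure was the root mean square difference in log2 CPM over the 9 libraries, after each profile was centred on its DMSO mean, from the mean of Mt1 and Mt2, which were each 0.11 away. The median candidate was 2.03 away. Nearest were Fosb, of the AP-1 family (0.37), Rrad, a Ras-related GTPase (0.58), the linker histone gene Hist1h1c (0.78), Nrip3 (0.88), the stress transcription factor gene Atf3 (0.93) and Csrnp1 (0.98).

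Fosb was at 13.8, 12.4 and 12.3 CPM in Bobcat339 libraries, at 1.92, 2.85 and 1.95 CPM in 4OI libraries and at 2.10, 2.22 and 1.32 CPM in DMSO libraries. Rrad averaged 28.4 ± 0.795 CPM with Bobcat339, 3.35 ± 0.929 CPM with 4OI and 4.49 ± 0.547 CPM with DMSO. Hist1h1c averaged 220, 64.6 and 56.0 CPM and Atf3 273, 148 and 66.3 CPM in the same groups. Fosb and Rrad stood out in Bobcat339 libraries in the manner of Mt1 and Mt2, while Atf3 was also higher in every 4OI library than in any DMSO library. These 6 genes were chosen for their likeness, and nothing is said of a shared control.

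**Figure D5:**
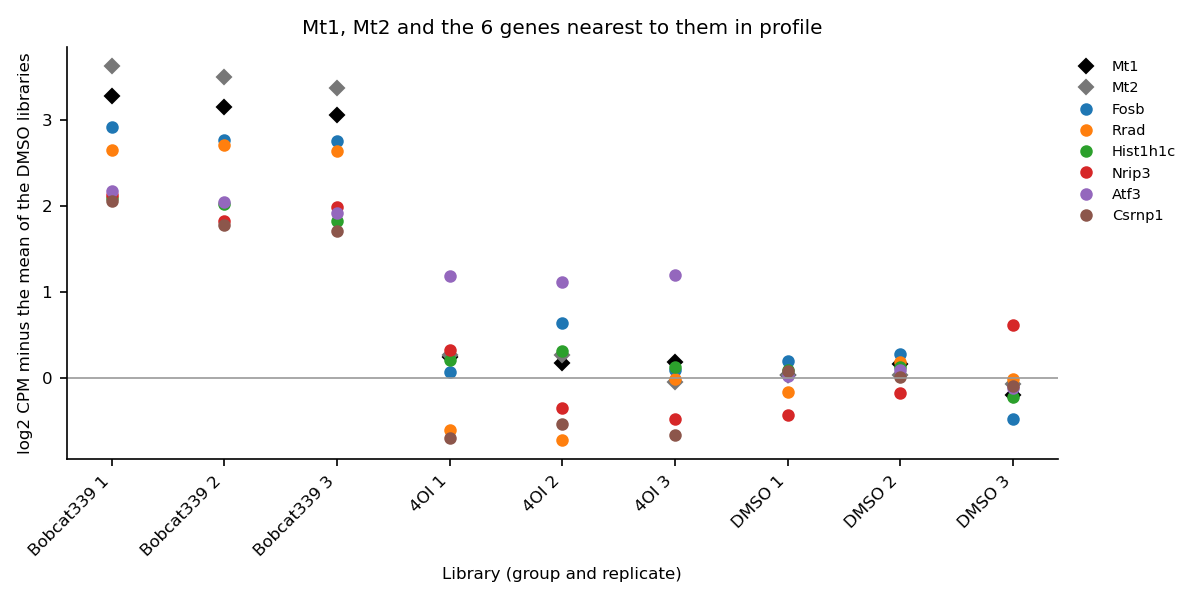
Log2 CPM minus the mean of the DMSO libraries for Mt1, Mt2 (diamonds) and the 6 genes nearest to them (circles), 1 column for each library, with Bobcat339 left, 4OI in the middle and DMSO right. All 8 lay above all their own 4OI and DMSO values in the Bobcat339 libraries, and Atf3 alone was near 1 in all 4OI libraries.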

How the data were processed

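RNA of cultured mouse hepatocytes was sequenced in 3 libraries each for Bobcat339, 4OI and DMSO, grouped by the treatment label. The authors deposited 1 table of 56691 genes, and the deposited values were treated as estimated counts in whole numbers, not scaled. Between 43.7% and 45.6% of values from 4 to 40 were multiples of 4, against 27.0% if even, so about 4 counts were taken as 1 read pair, with a floor of 3 read pairs (12 counts) per library that covers counting error only. CASAVA 1.8, HISAT2 2.0.5 and featureCounts 1.5.0-p3 stand in the submitters' processing notes. Their settings, the strand and the genome build were not given in the sources used here, and no coordinates of counted genes were used. Symbols were attached by Ensembl identifier for 52073 genes (91.9%), and rows without a symbol held at most 0.490% of counts.

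The fit was edgeR 4.0.16 in R 4.3.3 (TMM, filterByExpr, 1 quasi-likelihood fit of 9 libraries on their group, two-sided tests, Benjamini-Hochberg over 18379 genes, called at an adjusted p under 0.05). The biological coefficient of variation was 0.240. Standard errors are the log2 fold change over the root of F. Levels per kb used GENCODE M21 exons. Promoter windows are from RefSeq, GRCm38.p6. The method was tested on simulated data in which a small share of genes changed, evenly in both directions. That test does not cover scaling where most genes were called, as for 4OI over DMSO.

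The 8 genes and the lists were chosen with earlier results of these data known. The rule names all 8, up to 5 called zinc transporters, up to 3 called genes of each other list per comparison by smallest adjusted p (mean of at least 1 CPM), and the 6 nearest profiles. Slc39a5, Slc39a12, genes named for a lost call beyond that rule (such as Atp2c1 and Tsc22d3), Fkbp5, Hspa8, Slc7a11, Hspa1b between the treatments and the overlapping genes were named after their values were seen. Alternatives were RLE scaling, library size only, DESeq2 1.42.0, no filter, 1 CPM in 3 libraries, only the 6 libraries compared, a replicate block, each library left out, and, added after the data were seen, counts divided by 4. Figures were drawn with matplotlib.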

Additional observations from a re-analysis of the deposited data

How the results depend on the processing

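Of 408 fold changes of the 8 genes under 17 alternatives, 384 stayed within the spread between replicates, and 24 moved by more. The sign changed only for Slc30a10 in Bobcat339 over DMSO, at log2 0.07, which was -0.04 without Bobcat339 replicate 2 and -0.05 without DMSO replicate 2. With library size only, log2 values were 1.88 for Slc30a1 in 4OI over DMSO, 2.83 for Mt1 and 0.46 for Slc30a1 in Bobcat339 over 4OI. Without the filter these were 1.70, 3.06 and 0.69, and with only the 6 libraries compared the first was 1.71. Library size only and no filter moved the median of all genes by -0.12 and 0.11 for Bobcat339 over 4OI. For Bobcat339 over DMSO, DESeq2 called 2616 genes lower, against 1666 in edgeR, and other zinc transporters called lower numbered 1 rather than 2 without the filter and with 6 libraries.

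With 1 library left out, genes called higher for Bobcat339 over DMSO ran from 1380 (without DMSO replicate 1) to 2370 and genes called lower from 1046 (without DMSO replicate 1) to 1860, with 1421 and 1064 without Bobcat339 replicate 2 and 1102 lower without DMSO replicate 2. Zinc transporters called lower ran from 0 to 2, with 0 without Bobcat339 replicate 2 or 3 or DMSO replicate 1 or 2. Mt1 in Bobcat339 over 4OI ran from 2.90 to 3.05.

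Replicate numbers were shared by the groups. Deviations of same-numbered libraries correlated at 0.011 to 0.097 for Bobcat339 and DMSO and at -0.024 to -0.003 for 4OI and DMSO. For Bobcat339 and 4OI they correlated at -0.027 to 0.088. Differently numbered libraries gave -0.079 to 0.042, -0.011 to 0.025 and -0.117 to 0.059 in the same order. All these correlations were weak, and they do not settle whether the numbers mark a pairing. With the replicate block, 2336 genes were called higher and 1744 lower for Bobcat339 over DMSO.

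The 3 libraries of each group limit the precision of each fold change, and Slc30a10 in 4OI libraries is limited by depth.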
